A study of Mus musculus with 68 samples.

Results

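Lungs of mice taken 2 h after an injection of epidermal growth factor (Egf) were compared with lungs of untreated mice, gene by gene, and each difference was divided into the part already present after vehicle and the part that Egf added to it or took from it. The members were chosen by the titles of the libraries: 4 lung libraries of Egf at 2 h and 3 of untreated lung, which are 7 of the 68 libraries of the series. The 3 lung libraries of vehicle at 2 h were set between them. All animals were female wild-type C57BL/6J mice aged 10 weeks. Egf was given at 1 mg/kg in phosphate-buffered saline (PBS) into the retro-orbital sinus under isoflurane, and vehicle mice received 50 to 60 µL of PBS the same way. Untreated mice received neither, so a difference between Egf and untreated lung holds the effects of anaesthesia, injection, saline and Egf together. Organs were collected within 4 min, and the time of day of collection is not given in the sources used here. Heart, kidney and liver of the same design, and a 6 h time point, make up the rest of the series.

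Egf binds the receptor tyrosine kinase Egfr, and the Ras and MAP kinase cascade that follows induces immediate early transcription factors, further ligands of the Egf family and inhibitors that feed back on the cascade. In the lung, Egfr signalling is known for its part in epithelial growth and repair. Handling, anaesthesia and injection are known to release adrenal glucocorticoids, which act through a nuclear receptor on a well-known set of target genes and change the numbers of white cells in blood and lung vessels.

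Each library held between 17686547 and 21430960 counted reads, with mitochondrial reads at 1.36 to 2.08% and 18S reads at 1.81 to 3.65% in the 3 groups. Lung identity was as labelled: the summed level of 10 alveolar type II markers, surfactant genes among them, was 39100 to 48300 CPM (reads of a gene scaled to a common library size) in all 10 libraries. Several libraries stood apart. Hepatocyte markers reached a total of 4370, 1620, 532 and 2430 CPM after Egf, 99.7, 32.6 and 822 CPM after vehicle and 27.4, 116 and 82.3 CPM in untreated lung. All 17 hepatocyte markers were estimated higher after Egf than in untreated lung and none of them passed the test. Untreated replicate 3 held kidney tubule markers at 385 CPM against 0.779 and 1.84 CPM in the other untreated libraries, and untreated replicate 2 held adipocyte markers at 574 CPM against 81.3 and 106 CPM. Untreated replicate 1 was high for interferon-stimulated genes and for Fos and Egr1. The part of this foreign and variable RNA in the results below was not tested beyond 2 alternative fits. With hepatocyte and cardiomyocyte marker levels as covariates 415 genes were called, 381 of them among the 1076 genes of the main comparison. Hepatocyte totals of the Egf and untreated libraries did not overlap, so this covariate can take up part of the group difference itself. Fewer calls in this fit therefore do not show the part of foreign RNA. With genes rich in liver, heart or kidney removed before the fit 1166 genes were called, 1044 of them among the 1076.

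Egf at 2 h and untreated lung differed in 1076 of 16778 genes tested (6.41%), with 526 genes higher (3.14%) and 550 lower (3.28%) at an edgeR adjusted p under 0.05. The 4 Egf and 3 untreated libraries did not overlap for 1052 of these 1076 genes, against 24.4% of all genes tested. Without untreated replicate 1 the count of calls was 479, without untreated replicate 3 it was 461, without Egf replicate 2 it was 640 and without Egf replicate 4 it was 695. Many changes were small: 265 called genes changed at least 2-fold and 389 changed less than 1.5-fold. Jdp2 was the last gene inside the threshold (log2 change 0.57, adjusted p = 0.05) and Chchd4 the first outside it (0.51, adjusted p = 0.0503). P-values measure the spread between these libraries, and the sources do not say in so many words that each came from its own mouse. In whole lung, fewer cells of a type and less RNA per cell cannot be told apart.

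The difference between Egf and untreated lung is the sum of the vehicle step (vehicle over untreated) and the Egf step (Egf over vehicle). The steps share the vehicle libraries, so a vehicle library that is off in one direction moves them in opposite directions. By itself the vehicle step called 11 genes, all higher (0.0656% of genes tested), while 2047 genes had an unadjusted p under 0.05. The Egf step called 141 genes (0.84%), 116 higher and 25 lower. Of the 1076 genes called against untreated lung, 2 were called in both steps, 9 in the vehicle step only, 104 in the Egf step only (82 higher, 22 lower) and 961 in neither. Both estimated steps pointed the way of the total change in 973 of the 1076 genes. Choosing genes by a large total, the sum of the steps, favours such a shared sign, so this count is a description only. Median log2 changes of the 526 rises were 0.62 in total, 0.29 in the vehicle step and 0.29 in the Egf step, and those of the 550 falls were -0.78, -0.41 and -0.34. The corresponding medians of all genes tested were 0.0069, -0.00217 and -0.000809, and the vehicle step was the larger in size in 574 of the 1076 genes (53.3%) and in 9866 of the 16778 genes tested (58.8%). Without untreated replicate 2 the vehicle step called 32 genes higher and 25 lower, and without any one vehicle library the Egf step called 40 or 41 genes higher.

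**Figure D1:**
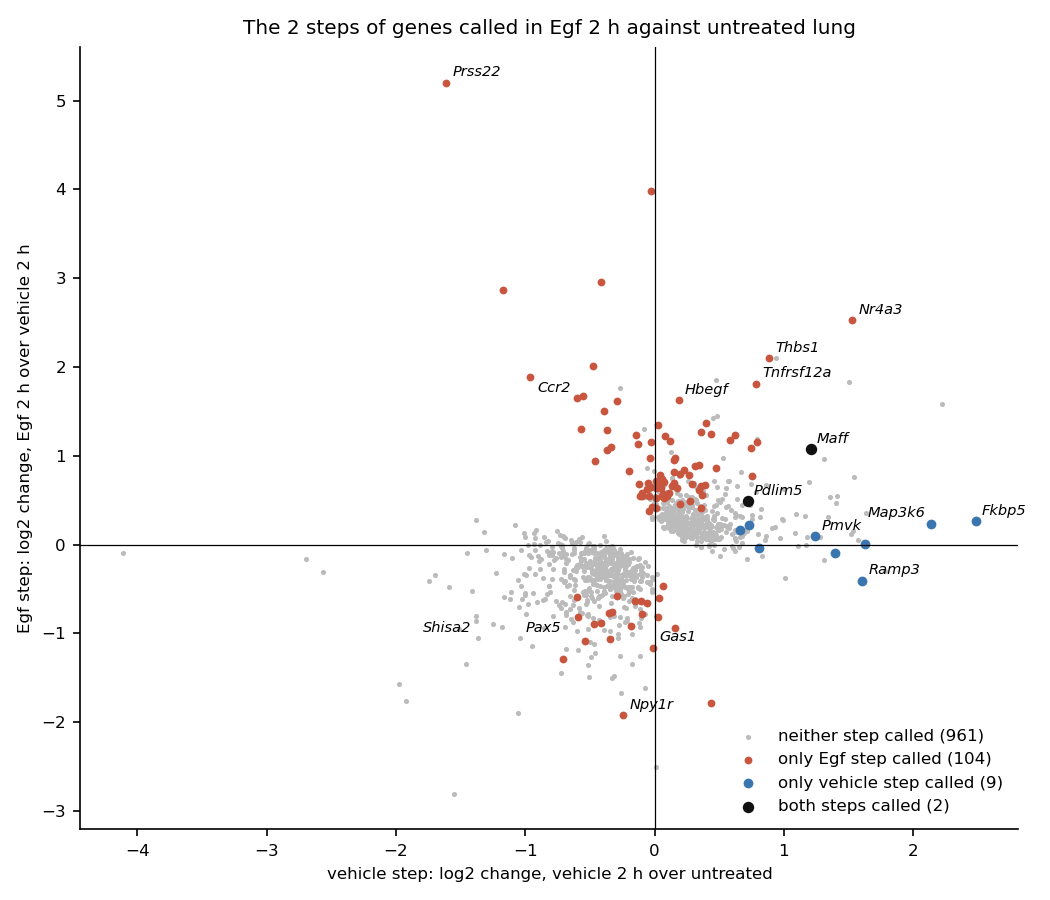
Each point is one of the 1076 genes called in Egf 2 h against untreated lung; the x axis is the log2 change of vehicle over untreated and the y axis that of Egf over vehicle, with colour giving the step or steps called. Most points lie in the upper right or lower left, where the steps have the same sign (973 genes), which choosing genes by the sum of the steps favours. Fkbp5 and Map3k6 lie far along the vehicle axis while Prss22 and Nr4a3 lie far along the Egf axis.

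The first set of changes was called in the vehicle step and not in the Egf step. Fkbp5, a co-chaperone of the glucocorticoid receptor and one of its standard targets (mm39 chromosome 17, 28618068 to 28736501, minus strand), stood at 17, 25 and 23.7 CPM (scaled by TMM, as are all gene levels here) in untreated lung, at 123, 140 and 104 CPM after vehicle and at 129, 163, 166 and 131 CPM after Egf. Both injected groups lay wholly above the untreated libraries and overlapped each other. Its log2 change was 2.75 ± 0.20 (SE; 6.73-fold, edgeR adjusted p = 4.88e-06) against untreated lung, of which 2.48 ± 0.21 belonged to the vehicle step (adjusted p = 2.99e-05) and 0.27 ± 0.18 to the Egf step (adjusted p = 0.795). The kinase gene Map3k6 (chromosome 4, 132968129 to 132980240) had 18, 26.4 and 25.8 CPM in untreated lung, 116, 105 and 88 CPM after vehicle and 105, 128, 152 and 102 CPM after Egf. Here too the injected groups overlapped, with a vehicle step of 2.14 ± 0.20 and an Egf step of 0.24 ± 0.18 on the log2 scale. Pmvk, a kinase of the mevalonate pathway, stood at 19.7, 27.7 and 29.4 CPM in untreated lung, at 53.7, 64.3 and 63.5 CPM after vehicle and at 63.2, 70.8, 65.6 and 59.6 CPM after Egf. Fkbp14, a prolyl isomerase of the endoplasmic reticulum, went from 14.3, 22.1 and 17.9 CPM to 48.9, 40.4 and 53.8 CPM after vehicle and stood at 38.7, 46.8, 39.7 and 54 CPM after Egf. These 4 genes passed the test of the vehicle step under every alternative run.

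The remaining genes called in the vehicle step only were Limk1, Klhl2, Fam107a, Tbc1d8 and Ramp3, of which the last 3 fall outside the naming rule and were chosen after their values were seen. Limk1, a kinase that acts on cofilin, stood at 23.3, 29.4 and 26 CPM in untreated lung, 41, 40.5 and 42.6 CPM after vehicle and 43.2, 48.3, 52.5 and 42.1 CPM after Egf. Klhl2, an adaptor of a ubiquitin ligase, had a vehicle step of 0.73 ± 0.12 (adjusted p = 0.0411) and an Egf step of 0.22 ± 0.12. Ramp3, a subunit of adrenomedullin receptors, had the most negative estimated Egf step of the 9 genes. It stood at 5.1, 4.51 and 5.38 CPM in untreated lung, 13.9, 14.8 and 17 CPM after vehicle and 8.88, 13.9, 11.6 and 11.6 CPM after Egf. The steps were 1.61 ± 0.25 (adjusted p = 0.0265) and -0.41 ± 0.23 (adjusted p = 0.706), which left a total of 1.20 ± 0.24. Each of these 5 lost its call in the vehicle step without untreated replicate 1 (adjusted p = 0.226 to 0.296) and without untreated replicate 3 (0.144 to 0.2). All of these 5 kept their calls against untreated lung without each of the 10 libraries.

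The next set consists of changes that add to those of vehicle. Maff, a small Maf transcription factor of the immediate early class (chromosome 15), and Pdlim5, a scaffold of the actin cytoskeleton (chromosome 3), were the 2 genes that rose in the vehicle step and rose again in the Egf step. Maff stood at 13, 22.3 and 13.7 CPM in untreated lung, at 34.8, 29.3 and 49.3 CPM after vehicle and at 67, 81.8, 76.2 and 94.4 CPM after Egf, and no group overlapped another. Its total of 2.29 ± 0.21 (edgeR adjusted p = 1.98e-05) was made of 1.21 ± 0.21 (adjusted p = 0.0461) and 1.08 ± 0.20 (adjusted p = 0.0141). Pdlim5 stood at 99.5, 113 and 90.4 CPM, then 154, 154 and 192 CPM, then 223, 240, 213 and 263 CPM, again with no overlap. Its total of 1.22 ± 0.11 was made of 0.72 ± 0.12 (adjusted p = 0.0265) and 0.49 ± 0.11 (adjusted p = 0.0394). The totals of both genes passed in every alternative, whereas their steps did not. Without untreated replicate 1 the vehicle step had an adjusted p of 0.305 in Maff and 0.233 in Pdlim5. With a library left out, Maff kept its call in the vehicle step only without untreated replicate 2 (adjusted p = 0.00461). Pdlim5 lost that call also without vehicle replicate 2 (0.0627), vehicle replicate 3 (0.117) or untreated replicate 3 (0.183). In the Egf step, Maff lost its call without vehicle replicate 1 (edgeR adjusted p = 0.0961) or 2 (0.1). Pdlim5 lost its Egf step call without Egf replicate 1, 2 or 4, vehicle replicate 1 or 2, or untreated replicate 1 (0.0567 to 0.219). DESeq2 called both steps in the same direction in 16 genes, among them Nr4a3, Tnfrsf12a, Bcar3, Medag and Gfpt2 upward and Fzd2, Shisa2 and C1qtnf2 downward. All 16 were also called against untreated lung, which follows largely from choosing genes whose steps sum in the same direction.

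Promoters of genes named by rule were read from RefSeq on build GRCm38.p6, an older build than that of the counts, in which 71 of the 92 called genes that the naming rule took matched. The cyclic AMP response element TGACGTCA, which reads the same on both strands, occurred in 1.79% of all 32851 promoter windows (250 bases before to 50 after the start; a gene can have several) and in 4 of the 50 matched rises, namely Maff, Areg, Errfi1 and Has1. It occurred in 0 of the 21 matched falls. The E-box CACGTG, also a palindrome, occurred in 7.15% of all windows, in 11 of the 50 rises and in 0 of the 21 falls. AP-1 sites TGANTCA, which the response element does not contain, occurred in 7.81% of all windows, in Osmr and Plaur among the rises and in Npy1r among the falls. A CArG box occurred in 1.63% of windows and, among the rises, in Srf and Herpud1. A match is a description of letters and not of binding. The 250 bases before the start are shown for Maff, which rose in both steps, for Areg and Errfi1, a ligand and an inhibitor of Egfr, and for Fkbp5, the leading gene of the vehicle step; capitals mark the response element, which starts 29, 61 and 51 bases before the start of Maff, Areg and Errfi1, and the E-box, which starts 191 bases before Maff and 169 before Fkbp5.
Maff (chr15:79347270-79347519, plus strand): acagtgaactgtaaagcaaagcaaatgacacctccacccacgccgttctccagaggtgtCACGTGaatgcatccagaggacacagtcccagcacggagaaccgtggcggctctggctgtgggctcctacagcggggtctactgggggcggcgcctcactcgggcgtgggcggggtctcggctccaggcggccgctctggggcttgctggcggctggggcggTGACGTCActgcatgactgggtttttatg
Areg (chr5:91139349-91139598, plus strand): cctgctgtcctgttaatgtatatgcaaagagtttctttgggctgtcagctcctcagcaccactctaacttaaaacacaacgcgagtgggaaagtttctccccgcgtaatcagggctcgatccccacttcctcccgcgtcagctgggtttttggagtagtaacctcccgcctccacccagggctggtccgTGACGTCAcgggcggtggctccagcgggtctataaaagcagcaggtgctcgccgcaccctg
Errfi1 (chr4:150854820-150855069, plus strand): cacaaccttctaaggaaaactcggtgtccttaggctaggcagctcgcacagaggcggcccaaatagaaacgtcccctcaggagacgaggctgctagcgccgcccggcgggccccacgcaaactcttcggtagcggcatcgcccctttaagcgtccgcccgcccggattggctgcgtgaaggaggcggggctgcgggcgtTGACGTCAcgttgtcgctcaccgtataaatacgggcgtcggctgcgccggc
Fkbp5 (chr17:28486150-28486399, minus strand): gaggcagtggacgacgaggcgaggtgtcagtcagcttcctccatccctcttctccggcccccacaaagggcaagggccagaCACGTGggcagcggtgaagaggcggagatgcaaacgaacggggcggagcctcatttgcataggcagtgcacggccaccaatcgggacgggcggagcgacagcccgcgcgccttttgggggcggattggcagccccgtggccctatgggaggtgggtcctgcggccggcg

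The largest set of genes called in a step was called in the Egf step and not in the vehicle step, and it included ligands of the receptor itself. Of 13 genes of the Egf family tested, 3 ligands rose against untreated lung and none fell (against 3.14% and 3.28% of all genes tested), and all 3 also rose over vehicle (against 0.691%). Hbegf, the heparin-binding ligand of Egfr, stood at 70.6, 46.9 and 56.6 CPM in untreated lung, at 78, 51.7 and 68.3 CPM after vehicle and at 208, 184, 204 and 222 CPM after Egf. The vehicle and untreated libraries overlapped and every Egf library lay above both, with a total of 1.82 ± 0.15 (edgeR adjusted p = 1.03e-05) and an Egf step of 1.63 ± 0.15 (adjusted p = 6.59e-05). Areg, amphiregulin, stood at 4.4, 3.31 and 2.9 CPM, 4.25, 4.71 and 6.95 CPM, and 9.87, 10.8, 15.4 and 12.2 CPM in the same order, a total of 1.77 ± 0.23. Nrg1, a ligand of Erbb3 and Erbb4, stood at 8.8, 6.92 and 8.01 CPM, 10.9, 6.18 and 6.09 CPM, and 14, 17.5, 21.9 and 15.7 CPM, a total of 1.13 ± 0.22 (adjusted p = 0.00571). Those 3 calls held without each of the 10 libraries. A fit of only the 10 libraries of the 3 groups called 5 of the 13 higher and 1 lower.

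Per kilobase of gene length in untreated lung, Hbegf (12 ± 2.47 CPM per kb, SD, n = 3), Erbb3 (10.6 ± 0.879) and Erbb2 (9.43 ± 0.739) led the family and lay within their spread of each other. Tgfa followed at 5.07 ± 0.765, then Areg at 2.91 ± 0.637, Egfr at 2.03 ± 0.191 and Nrg2 at 2 ± 0.0595, the last 2 within their spread. Erbb4 was at 0.054 ± 0.0337. After Egf, Hbegf reached 42.3 ± 3.21 and Areg 9.91 ± 1.97 CPM per kb (SD, n = 4). None of the receptors passed the test in the main fit, whose spread also comes from the 6 h libraries. Egfr had 21.2, 25.4 and 22.3 CPM in untreated lung, 33.6, 28.2 and 25 CPM after vehicle and 43, 31.9, 39.9 and 30.4 CPM after Egf. Its log2 change was 0.66 ± 0.49 (edgeR adjusted p = 0.454) although the end groups did not overlap. Ereg (2.38 ± 1.01, adjusted p = 0.181) and Nrg2 (-0.68 ± 0.25, adjusted p = 0.115) had no overlap and no call. Egf itself stood at 0.215, 0.301 and 41.2 CPM in untreated lung, where the high value is untreated replicate 3, the library with kidney tubule markers.

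Among the largest rises that came with the Egf step were a nuclear receptor, a matrix protein and a cytokine receptor. Nr4a3, an orphan nuclear receptor (chromosome 4), stood at 3.65, 13.7 and 3.71 CPM in untreated lung, 18.4, 14.1 and 28.5 CPM after vehicle and 113, 115, 114 and 126 CPM after Egf. No group overlapped another, and the total of 4.05 ± 0.44 (edgeR adjusted p = 0.000154) had an Egf step of 2.52 ± 0.40 (adjusted p = 0.0086) and a vehicle step of 1.53 ± 0.42 that did not pass (adjusted p = 0.209). Thbs1, thrombospondin 1, a secreted glycoprotein that regulates adhesion and TGF-beta activation, stood at 123, 184 and 118 CPM, 281, 161 and 342 CPM, and 1130, 938, 951 and 1460 CPM. It had a total of 2.98 ± 0.28 and an Egf step of 2.10 ± 0.27, and vehicle replicate 2 lay among the untreated libraries. Tnfrsf12a, the receptor of the cytokine Tweak, stood at 23.1, 25.1 and 28.3 CPM, 39.2, 32.1 and 60.5 CPM, and 159, 150, 111 and 197 CPM, with a total of 2.60 ± 0.22 and an Egf step of 1.81 ± 0.22. Prss22, a serine protease, stood at 0.161, 0.251 and 0.269 CPM, 0.0905, 0.0567 and 0.0574 CPM, and 2.81, 2.75, 3.67 and 2.01 CPM. Its total was 3.59 ± 0.34, and its vehicle level rests on so few reads that its fitted Egf step is no measure of size.

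Other genes called in the Egf step changed less. Bcar3, an adaptor of integrin signalling, rose by 1.53 ± 0.15 in total, Medag, a gene linked to fat cell formation, by 1.95 ± 0.19, and the small Maf factor Mafk by 0.96 ± 0.09. All 3 had vehicle libraries between the untreated and the Egf libraries without overlap. Of the falls called in the Egf step, Fzd2, a Wnt receptor, stood at 50.7, 47.2 and 53.7 CPM in untreated lung, 33.3, 38.6 and 28.1 CPM after vehicle and 19.9, 23.5, 24.1 and 21.3 CPM after Egf. Its total was -1.18 ± 0.11 (edgeR adjusted p = 2.39e-05) with estimated steps of -0.60 ± 0.12 (adjusted p = 0.0663) and -0.59 ± 0.11 (adjusted p = 0.0222). Gas1, a membrane protein that binds hedgehog ligands, stood at 40.1, 47.5 and 47.3 CPM, 42.3, 44.5 and 46.9 CPM, and 15.9, 23, 21.4 and 19.5 CPM. Untreated and vehicle libraries overlapped, and nearly all of its total of -1.17 ± 0.13 lay in the Egf step (-1.16 ± 0.13). Wnt3a (total -1.29 ± 0.14), the Wnt regulator Dact3 (-1.36 ± 0.17) and the membrane glycoprotein Gypc (-1.09 ± 0.13) fell as well. Npy1r, a receptor of neuropeptide Y, stood at 6.97, 7.47 and 4.03 CPM, 5.7, 4.94 and 5 CPM, and 0.938, 1.52, 1.55 and 1.51 CPM, a total of -2.16 ± 0.21 with an Egf step of -1.92 ± 0.21.

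**Figure D2:**
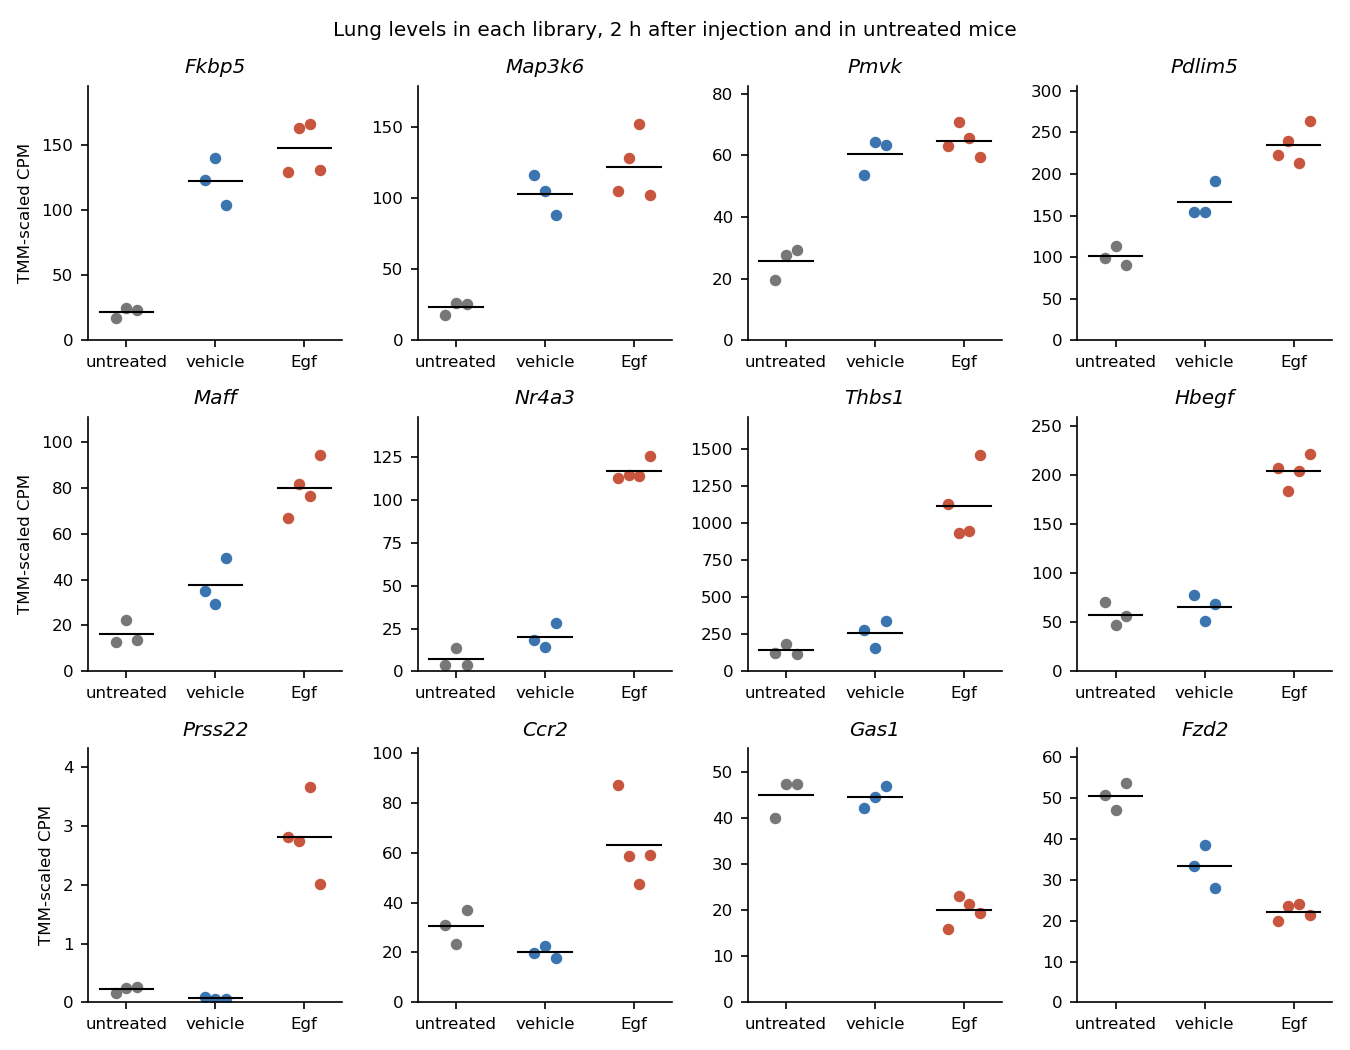
TMM-scaled CPM (y axes, linear from 0) of 12 genes in the 3 untreated, 3 vehicle and 4 Egf lung libraries at 2 h; points are libraries and bars are group means. In Fkbp5, Map3k6 and Pmvk the vehicle and Egf libraries overlap above the untreated ones, in Maff and Pdlim5 the 3 groups form a stair, in Hbegf and Gas1 the Egf libraries stand apart from the other groups, and in Ccr2 the vehicle libraries lie below the untreated ones.

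The immediate early genes, transcription factors that MAP kinase signalling induces without new protein synthesis, were called in part. Of 25 tested, 7 rose and none fell (all genes tested: 3.14% and 3.28%), with a median of 0.20 in total, -0.05 in the vehicle step and 0.32 in the Egf step. Besides Nr4a3 and Maff they were Fosb (1.22), Atf3 (0.81), Srf (0.66), Fosl2 (0.51) and Klf6 (0.49). Fos (66.7, 10.5 and 13.8 CPM in untreated lung, 18.6, 19.4, 20.2 and 22.1 CPM after Egf) and Egr1 (114, 16.3 and 16.8 against 15.1, 22.5, 15.1 and 15.6 CPM) did not pass. In both, untreated replicate 1 lay far above the other 2. The count was 3 without untreated replicate 3, 4 without untreated replicate 1 or Egf replicate 4, and 3 in the covariate fit. Of 17 MAP kinase and Egfr feedback genes, 3 rose and none fell. Dusp6, a phosphatase of Erk, stood at 98.8, 77.4 and 77.4 CPM in untreated lung, 104, 87.8 and 123 CPM after vehicle and 152, 142, 137 and 167 CPM after Egf, a total of 0.83 ± 0.12 (edgeR adjusted p = 0.000803). Spred1, an inhibitor of Ras signalling, rose by 0.73 ± 0.11, and Errfi1, which binds and inhibits Egfr, by 1.13 ± 0.28. None of the 3 was called in either step, and the call of Errfi1 was lost with a library left out. Sprouty genes Spry1, Spry2 and Spry4 had totals of 0.09, 0.24 and 0.24 that did not pass.

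Matrix and plasminogen genes rose in 6 of 18 cases and fell in none, beside 3.14% and 3.28% of all genes tested, with a median of 0.48. With Thbs1 they were Plaur, the urokinase receptor (total 1.02 ± 0.14), the matricellular gene Ccn2 (0.95 ± 0.13) and the metalloproteases Adamts1 (0.77 ± 0.17), Adamts4 (1.53) and Adamts9 (1.04). Adamts1 stood at 131, 107 and 76.3 CPM in untreated lung, 92.1, 68.5 and 89 CPM after vehicle and 186, 148, 170 and 210 CPM after Egf, so that its estimated vehicle step of -0.33 ± 0.18 (adjusted p = 0.451) took away from an Egf step of 1.10 ± 0.17 (adjusted p = 0.00559). Adamts9 had the reverse make-up, with 0.97 in the vehicle step and 0.07 in the Egf step, neither called. The count was 3 without untreated replicate 3. Cytokine receptors and STAT feedback genes rose in 5 of 12 cases and fell in none, beside the same shares: Osmr, the oncostatin M receptor (59.2, 60.7 and 59.6 CPM in untreated lung, 70.1, 74.7 and 60.7 CPM after vehicle, 108, 101, 144 and 122 CPM after Egf), Il4ra, Il1r1, Stat3 and Socs2. Their median was 0.35 in total, 0.05 in the vehicle step and 0.37 in the Egf step, and only Osmr was called in a step, that of Egf.

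Glucocorticoid-induced genes, the list with the highest median among the pathway lists, rose in 10 of 16 cases and fell in none, beside 3.14% and 3.28% of all genes tested. Their median log2 change was 1.11 in total, 0.69 in the vehicle step and 0.46 in the Egf step. Fkbp5 was called in the vehicle step and none was called in the Egf step. Cdkn1a, the cell cycle inhibitor p21, stood at 56.1, 118 and 65.9 CPM in untreated lung, 182, 186 and 268 CPM after vehicle and 286, 275, 289 and 322 CPM after Egf. The groups did not overlap, with a total of 1.87 ± 0.29 (edgeR adjusted p = 0.00193) and steps of 1.41 ± 0.30 (adjusted p = 0.0892) and 0.47 ± 0.28 (adjusted p = 0.735). Zbtb16, a transcription factor, stood at 20.1, 25.1 and 31.3 CPM, 101, 77.6 and 48.5 CPM, and 77, 85.1, 102 and 49.6 CPM, with a total of 1.62 ± 0.44 and 1.57 ± 0.46 in the vehicle step (adjusted p = 0.258). Tsc22d3, known as Gilz, had 228 CPM in untreated replicate 2 against 107 and 92.8 CPM in the others and 299, 305, 328 and 403 CPM after Egf, a total of 1.23 ± 0.27. Cebpd (1.43), Hif3a (1.64), Mt1 (0.99), Sgk1 (0.78), Klf9 (0.73) and Angptl4 (1.96) completed the 10. The count was 5 without untreated replicate 1, 4 without untreated replicate 3 and 4 in the covariate fit. Per1, a clock gene that glucocorticoids also induce, stood at 48.6, 74.4 and 19.4 CPM in untreated lung and did not pass (0.63 ± 0.34, adjusted p = 0.286).

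The counts of the other pathways stand beside 3.14% higher and 3.28% lower among all genes tested. Among 19 circadian clock genes Cry1 (0.75) and Nfil3 (0.96), repressors of the clock, rose and the output factors Dbp (-1.42) and Hlf (-0.97) fell. Dbp had 161 CPM in untreated replicate 1 against 38.9 and 55.6 CPM in the other 2, and its untreated and Egf libraries overlapped. The clock list held 1 call without untreated replicate 1, Egf replicate 1 or Egf replicate 4, 2 without untreated replicate 3 and 0 in the covariate fit. Heat shock genes of the cytosol rose in 3 of 15 cases (Hspa8, Dnaja1 and Chordc1) with a median of 0.57, of which 0.30 lay in the vehicle step. Their count was 1 without untreated replicate 1 or 3 and 7 without untreated replicate 2. Unfolded protein response genes, with those of amino acid shortage, rose in 4 of 18 cases, namely the transcription factors Xbp1 (0.70) and Atf4 (0.92), the chaperone Dnajb9 (0.67) and Herpud1 (0.46), which acts in degradation at the endoplasmic reticulum. NF-kB targets and chemokines rose in 4 of 21 cases (Bcl3, Nfkbia, Ccl2 and Ccl7), and the count fell to 1 or 2 without any one of Egf replicates 1 and 2, vehicle replicate 2 or the untreated replicates, and to 1 higher beside 1 lower without Egf replicate 4. Plin2, a lipid droplet protein, and Angptl4, an inhibitor of lipoprotein lipase, rose among 15 PPAR-alpha and fasting genes, and Nop58 and Wdr43 among 20 ribosome biogenesis genes. Single members rose among 15 hypoxia and glycolysis genes (Pfkfb4) and 21 cholesterol synthesis genes (Hsd17b7), and 0 of 19 cell cycle genes passed. All but the Pfkfb4 and Plin2 calls of these last 4 lists were lost with a library left out.

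The calls among interferon-stimulated genes were lost without 1 untreated library. Of 20 tested, 2 fell, Ifit2 among them, and none rose (all genes tested: 3.28% and 3.14%), with a median of -0.54 in total, -0.56 in the vehicle step and -0.03 in the Egf step. Ifit2, which binds foreign RNA, stood at 44.5, 26.4 and 30.1 CPM in untreated lung, 27.4, 21.3 and 20 CPM after vehicle and 18.8, 18.6, 17.4 and 22.9 CPM after Egf, a total of -0.79 ± 0.17. Gbp5, an interferon-induced GTPase that is not in the list and is among the 12 largest falls, stood at 96.1, 16.1 and 18.3 CPM in untreated lung, 13.2, 18.3 and 8.67 CPM after vehicle and 9.93, 11.1, 10.1 and 11.2 CPM after Egf. Untreated replicate 1 was the highest library in both. Without it 0 of the 20 passed and the list's median was -0.126, while 6 passed without untreated replicate 2. Leaving out any of the 4 Egf libraries, vehicle replicate 1 or vehicle replicate 2 left 1 call.

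**Figure D3:**
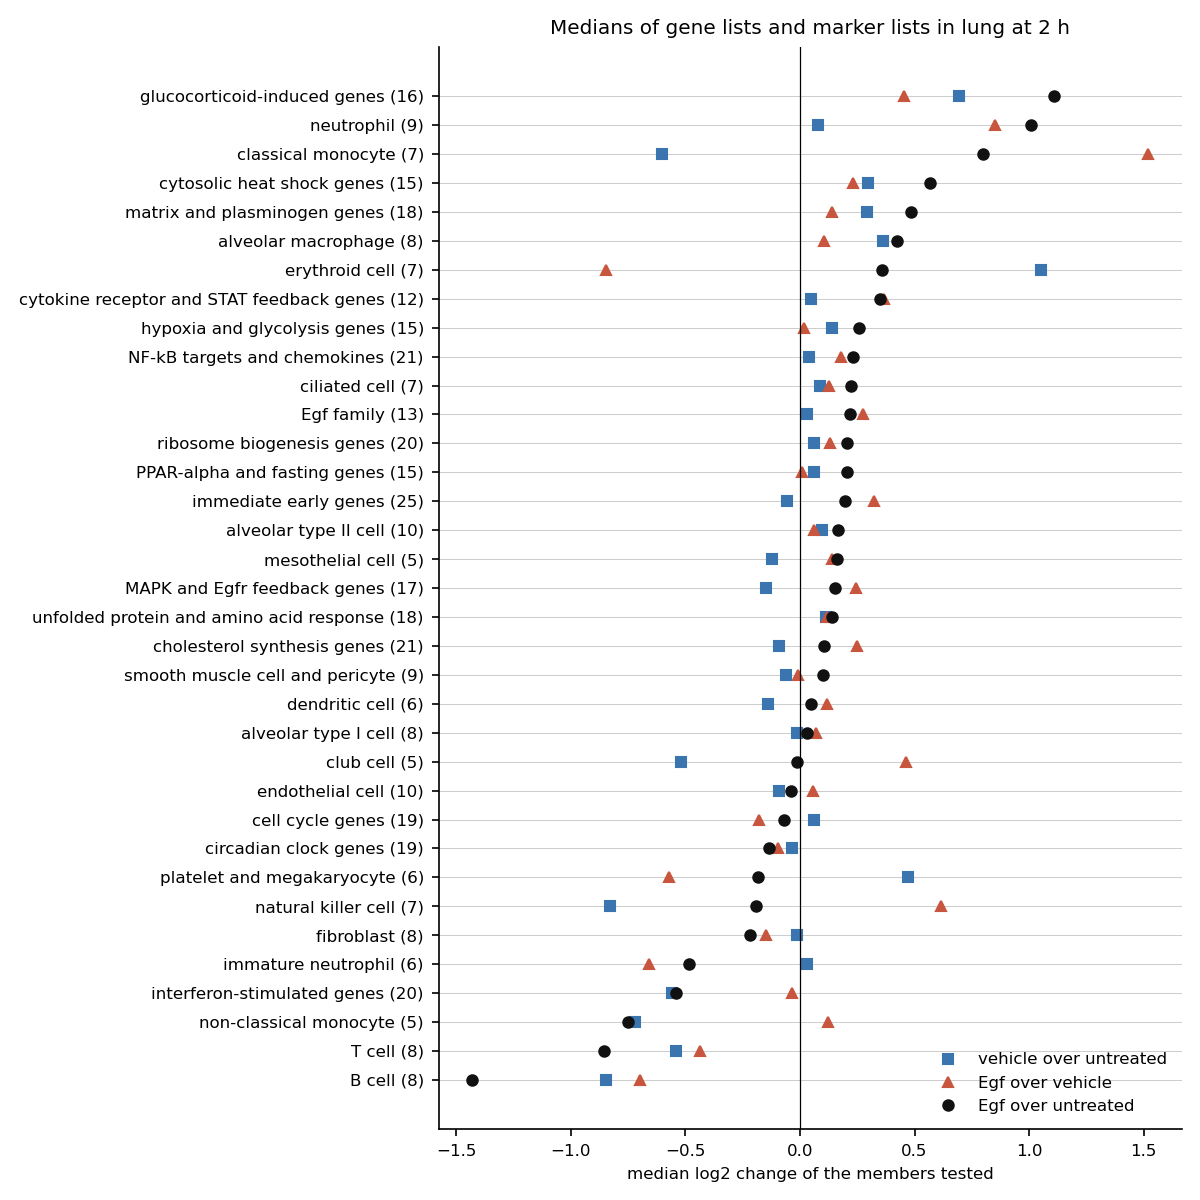
Median log2 change of the members tested (number in brackets) of each pathway list and lung or blood cell marker list with at least 5 members tested, for vehicle over untreated (squares), Egf over vehicle (triangles) and Egf over untreated (circles). Glucocorticoid-induced genes sit highest in total at 1.11 and B cell markers lowest at -1.43; the classical monocyte markers have a vehicle step of -0.60 and an Egf step of 1.52, on opposite sides of 0.

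Summed markers of B cells and of T cells were lower after Egf than in untreated lung. All 8 B cell markers tested fell (all genes tested: 3.28%), with a median of -1.43 in total, -0.85 in the vehicle step and -0.70 in the Egf step, and none was called in either step. Summed over the list, the level was 153, 206 and 190 CPM in untreated lung, 108, 118 and 82.2 CPM after vehicle and 100, 56.2, 45.2 and 55 CPM after Egf. The untreated libraries lay above all others, and Egf replicate 1 lay among the vehicle libraries. Pax5, the transcription factor that defines the B lineage, stood at 8.37, 12.5 and 10.6 CPM, 6.51, 5.39 and 3.33 CPM, and 3.25, 2.25, 2.81 and 1.51 CPM, with a total of -2.09 ± 0.33 (edgeR adjusted p = 0.00169). Its call held without each library. Cd79b, part of the B cell receptor, fell by 1.14 ± 0.27 on the log2 scale and the Fc receptor Fcmr by 1.38 ± 0.35. Of the 8 calls, 1 was left without untreated replicate 2 or 3 or Egf replicate 2 or 4, 2 without untreated replicate 1 or Egf replicate 3, and 1 in the covariate fit, while the list's median stayed between -1.74 and -1.30 with a library left out. Immunoglobulin genes fell in 11 of 51 cases, among them Igkv3-12 and Igkv17-121, and rose in none. Of 3 plasma cell markers tested, none was called. T cell markers fell in 5 of 8 cases, with sums of 52.8, 58.8 and 57.6 CPM, 40.8, 37.2 and 38.8 CPM, and 39.3, 27.7, 25 and 26.5 CPM. Cd8b1, a chain of the CD8 coreceptor, fell by 1.56 ± 0.25, and the other 4 were Cd8a, Lck, Cd3e and Cd3g. Between 1 and 5 of the 8 T cell markers passed with a library left out, the fewest without untreated replicate 3. The count was 2 without untreated replicate 1 or Egf replicate 4 and 3 without untreated replicate 2, Egf replicate 2 or 3, or vehicle replicate 1 or 2.

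The last set would be changes that cancel those of vehicle. No gene was called in both steps with opposite signs, and at an unadjusted p under 0.05 in both steps 156 genes were, 113 of them lower after vehicle and higher again after Egf and 43 the other way round. At the same threshold 146 genes had both steps in the same direction. Because the steps share the vehicle libraries, noise in those libraries favours opposite signs, so these counts are a description only. Among the 1076 called genes the estimated vehicle step ran against the total in 52 and the estimated Egf step in 51, counts that choosing genes by the total keeps low. Classical monocyte markers had a median of -0.60 in the vehicle step and 1.52 in the Egf step, which left 0.80 in total, and 3 of 7 rose against untreated lung while 4 of 7 rose over vehicle (all genes tested: 3.14% and 0.691%). Their sum was 225, 133 and 152 CPM in untreated lung, 109, 137 and 112 CPM after vehicle and 341, 256, 220 and 261 CPM after Egf. Ccr2, the chemokine receptor that draws monocytes from bone marrow, stood at 31.1, 23.2 and 37.2 CPM in untreated lung, 19.7, 22.7 and 17.8 CPM after vehicle and 87.1, 58.8, 47.6 and 59.1 CPM after Egf. Every vehicle library lay below every untreated library, and every Egf library above both. The total of 1.05 ± 0.19 (edgeR adjusted p = 0.00406) was made of -0.60 ± 0.20 (adjusted p = 0.303) and 1.65 ± 0.20 (adjusted p = 0.000693). F13a1, a chain of coagulation factor XIII that monocytes carry, stood at 25.9, 21 and 25.5 CPM, 20.5, 20.4 and 18.4 CPM, and 78, 52.1, 56.6 and 55.3 CPM, with steps of -0.29 ± 0.19 and 1.61 ± 0.18. Ifitm6 had steps of -0.96 ± 0.26 and 1.89 ± 0.25. Ly6c2, the surface antigen that defines these monocytes, had 51.6 CPM in untreated replicate 1 against 19.6 and 23.4 CPM in the other 2, and was called over vehicle (1.52 ± 0.28) but not against untreated lung (0.80 ± 0.27, adjusted p = 0.09).

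Neutrophil markers, of which 9 were tested, had a median of 0.08 in the vehicle step, 0.85 in the Egf step and 1.01 in total. Against untreated lung 1 of the 9 rose (all genes tested: 3.14%), the collagenase Mmp8 (5.31, 4.51 and 4.73 CPM, then 6.42, 3.97 and 4.94 CPM, then 15.4, 12.1, 12.2 and 8.14 CPM). Over vehicle 3 of the 9 rose (all genes tested: 0.691%). The summed level of the list was 135, 133 and 85.3 CPM in untreated lung, 124, 88.9 and 130 CPM after vehicle and 305, 218, 176 and 149 CPM after Egf. Cxcr2, a chemokine receptor, and Csf3r, the receptor of granulocyte colony-stimulating factor, were called over vehicle and not against untreated lung. Csf3r stood at 14.9, 9.32 and 11.5 CPM, 9.23, 5.39 and 6.72 CPM, and 24.9, 16.9, 22.3 and 15.6 CPM. Immature neutrophil markers, of which 6 were tested, had medians of 0.03 in the vehicle step, -0.66 in the Egf step and -0.49 in total. None of them was called in any comparison. Of 5 non-classical monocyte markers tested, Cd300e and Spn fell beside 3.28% of all genes tested, and 1 of the others had an estimate above 0. The list's sum was 1300, 1400 and 1230 CPM in untreated lung, 1430, 1230 and 982 CPM after vehicle and 1300, 1400, 1380 and 1050 CPM after Egf, so that all 3 groups overlapped. Cd300e and Spn had totals of -0.86 ± 0.22 and -0.78 ± 0.20, with estimates of -1.08 ± 0.24 and -0.86 ± 0.22 in the vehicle step and 0.22 ± 0.23 and 0.08 ± 0.20 in the Egf step. Both calls were lost without untreated replicate 1 or 3 or Egf replicate 3 or 4, and 1 was left without Egf replicate 1 or 2 or untreated replicate 2.

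In addition, 35 genes were called in the Egf step and not against untreated lung, 32 higher and 3 lower. Examples, chosen after their values were seen, were Lrrc25, Csf3r, Tgfb3, Rassf4, Emilin2, Cd300lb and Tifab, and in each of these the estimated vehicle step was below 0 and the Egf step above it. A rise over vehicle without a call in the total favours a vehicle step below 0, so these signs follow largely from the choice of genes. Tifab, a regulator of innate immune signalling, stood at 16.7, 13 and 15.3 CPM in untreated lung, 10.3, 10.3 and 7.81 CPM after vehicle and 19.4, 16.4, 14.7 and 15.4 CPM after Egf. Its vehicle libraries lay below both other groups, which overlapped, with steps of -0.66 ± 0.14 (edgeR adjusted p = 0.082) and 0.80 ± 0.13 (adjusted p = 0.00809) and a total of 0.14 ± 0.13. Emilin2, an extracellular glycoprotein, stood at 20, 16.6 and 16.5 CPM, 12.8, 9.3 and 5.92 CPM, and 30.1, 25.2, 33 and 19.4 CPM. DESeq2 called both steps with opposite signs in 7 genes, Fgr, Itgam, Lsp1, Lst1, Myo1f, Sh3rf2 and Tifab, all lower after vehicle and higher after Egf. It called none of the 7 against untreated lung, which follows largely from choosing genes with steps of opposite sign. Itgam, the CD11b chain of the integrin of monocytes and neutrophils, stood at 6.51, 6.36 and 5.94 CPM of library totals in untreated lung, 3.73, 2.42 and 2.54 CPM after vehicle and 9.26, 5.29, 5.61 and 5.09 CPM after Egf. Its DESeq2 steps were -1.04 ± 0.28 (adjusted p = 0.0215) and 1.15 ± 0.26 (adjusted p = 0.00148), with edgeR adjusted p-values of 0.142 and 0.0358.

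**Figure D4:**
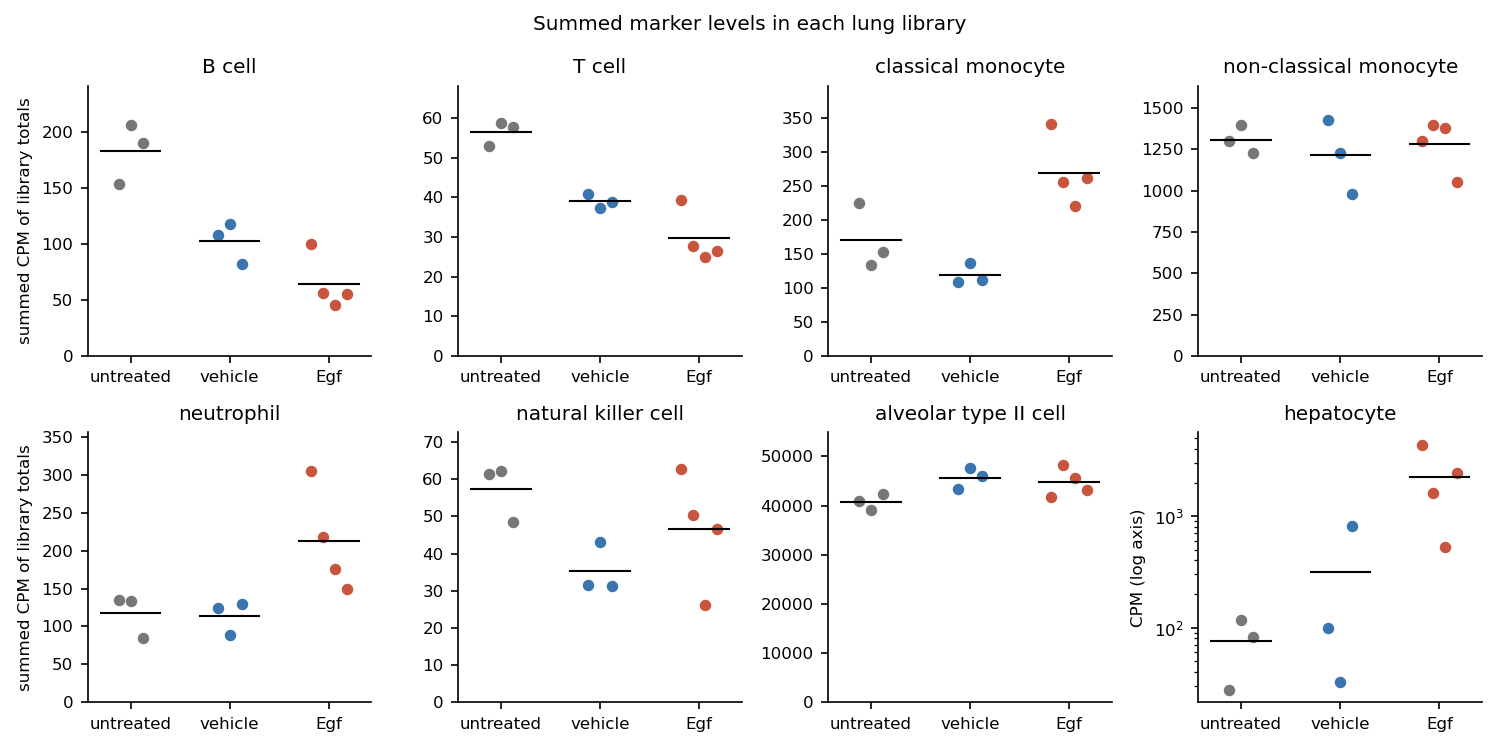
Summed level of the markers of 8 cell types in each lung library, as CPM of library totals (y axes linear from 0, except hepatocytes on a log axis); points are libraries and bars are group means. B and T cell sums are highest in untreated lung, classical monocyte sums in the Egf libraries are at or above 220 CPM against 109 to 137 CPM after vehicle, alveolar type II sums lie between 39100 and 48300 CPM throughout, and hepatocyte sums run from 532 to 4370 CPM after Egf, with 1 vehicle library at 822 CPM.

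The largest falls against untreated lung outside these lists were mostly of low level. Shisa2, a regulator of Wnt and Fgf receptors, stood at 14.1, 8.57 and 11.2 CPM in untreated lung, 4.3, 4.94 and 3.91 CPM after vehicle and 2.04, 1.63, 2.29 and 2.45 CPM after Egf. The 3 groups did not overlap, and its total of -2.42 ± 0.28 (edgeR adjusted p = 0.00014) had estimated steps of -1.37 ± 0.30 and -1.05 ± 0.29, neither called. Lrrc17, a secreted leucine-rich repeat protein, stood at 7.08, 9.42 and 8.87 CPM, 5.88, 4.43 and 5.46 CPM, and 2.98, 2.08, 0.974 and 3.29 CPM (total -1.86 ± 0.32). Gpr21, an orphan receptor (-2.09 ± 0.40), the adhesion protein gene Lrrc4b (-2.95 ± 0.62), Niban3 (-2.15 ± 0.45) and Rab17, a small GTPase of epithelial trafficking (-2.18 ± 0.49), lay below 4 CPM throughout. Ebf2, a transcription factor of brown and beige fat cells, stood at 0.483, 3.91 and 0.376 CPM in untreated lung, and its high library was the one with adipocyte markers. Its call and those of Rab17 and Gjb5 were lost with a library left out. Among the remaining large rises were Has1, a hyaluronan synthase (1.23, 0.702 and 1.51 CPM, 2.44, 2.04 and 4.08 CPM, and 6.07, 4.89, 6.7 and 4.63 CPM), Clec4d, a myeloid lectin receptor (1.99 ± 0.31), Gjb5, a connexin (2.33 ± 0.55), and Btbd17 (2.55 ± 0.44).

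Each marker list of structural lung cells held 1 call or none against untreated lung, beside 6.41% of all genes tested. Club cell markers had a median of -0.52 in the vehicle step, 0.46 in the Egf step and -0.01 in total, none called in any comparison. Their sum was 28100, 24600 and 28100 CPM in untreated lung, 22700, 14800 and 15400 CPM after vehicle and 20000, 14800, 32700 and 19200 CPM after Egf. The vehicle libraries lay below the untreated ones and overlapped the Egf libraries. None of 10 alveolar type II, 8 alveolar type I, 5 club, 7 ciliated, 8 fibroblast and 9 smooth muscle and pericyte markers passed, and single calls were Gpihbp1, a lipase anchor of capillary endothelium (0.52 ± 0.15), and Lrrn4 of the mesothelium (-0.57 ± 0.15). Erythroid markers had a median of 1.05 in the vehicle step and -0.85 in the Egf step, none called, with sums of 4600, 13600 and 19600 CPM after vehicle. Of 779 genes tested that are rich in liver, heart or kidney, 10 were called (1.28%, against 6.41% of all genes tested), all of them lower after Egf.

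The leading genes of the vehicle step can also be set beside the 6 h libraries. At 6 h Fkbp5 was at 36.2 ± 8.57 CPM after Egf (SD, n = 4) and 31.6 ± 4.69 CPM after vehicle (SD, n = 3), compared with 147 ± 19.9 and 122 ± 17.8 CPM at 2 h and 21.9 ± 4.29 CPM in untreated lung. Map3k6 was at 32.5 ± 5.95 and 31 ± 3.4 CPM at 6 h, against 122 ± 23.2 and 103 ± 14.3 CPM at 2 h. These values are set side by side without a test of the difference between times.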

How the data were processed

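Polyadenylated RNA of mouse lung was sequenced from libraries that did not keep strand, so reads of overlapping and antisense genes cannot be told apart. The deposited values are unnormalised counts of reads for each of 56748 genes; per the submitters' processing notes, the authors used HISAT2 2.0.5, featureCounts 1.5.0-p3 and build mm39, and the annotation release is not given in the sources used here. Gene names and coordinates were taken from the table. The 17 lung libraries were grouped by their titles and fitted together with edgeR 4.0.16 in R 4.3.3 (filterByExpr over 5 groups, TMM scaling, robust quasi-likelihood F test), with Benjamini-Hochberg adjustment over 16778 genes and an adjusted p under 0.05 as a call. Standard errors are those implied by the F statistic. The contrasts Egf against untreated, vehicle against untreated and Egf against vehicle share libraries, and the first is the sum of the others. The common biological coefficient of variation was 0.283. On simulated counts over the same 16778 genes, 67 genes were changed 1.5-fold, 67 were changed 2-fold and 66 were changed 4-fold. The comparison of Egf with untreated lung called 19.4%, 65.7% and 87.9% of them. Fewer genes were changed there than were called in the data, which makes the adjustment stricter, so these shares may not carry over.

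The members and the 16 pathway and 29 marker lists were chosen with earlier results of these data known. The rule for naming genes was: called against untreated lung, a mean of at least 1 CPM in a group, no overlap of the libraries, an informative symbol and not rich in another organ. Of these, the rule took the 12 largest rises and falls, up to 6 per direction called in only one step besides, up to 10 added or cancelled genes, up to 4 members per list by smallest p, and the Egf family always. Other genes in the text, namely further list members (Fosb, Atf3, Klf6, Zbtb16, Tsc22d3, Cebpd, Hif3a, Klf9, Adamts4, Adamts9, Stat3, Dbp, Hlf, Cd3e and those given without a call), genes at the threshold and genes called over vehicle alone or by DESeq2, were chosen after their values were seen. A gene counted as rich in liver, heart or kidney where its mean was at least 20 CPM in that untreated organ and at least 20 times its lung median at 6 h. Marker sums are CPM of library totals, other gene levels TMM-scaled CPM. Alternatives were DESeq2 1.42.0, RLE scaling, no filter, only the 10 libraries of the 3 groups, a replicate block, covariates for hepatocyte and cardiomyocyte markers, each library left out, and, added after seeing the data, removal of genes rich in other organs. Promoter windows came from RefSeq (GRCm38.p6), and no coordinates were carried between builds. Values of a few genes that enter the counts are not reported here.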

Additional observations from a re-analysis of the deposited data

Results flagged for a closer look

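In 13 of 131 groups of 4 Egf values examined, 1 library lay further from the other 3 than Dixon's 95% critical value for 4 samples allows; chance alone gives about 1 flag in 20 groups. In Egf replicate 1, Npy1r was at 0.938 CPM against 1.51 to 1.55 CPM in the other Egf libraries and Ifitm6 at 11.7 CPM against 6.97 to 7.64 CPM. The same library had the lowest marker sums of alveolar type I cells (6740 against 7300 to 7410 CPM) and of endothelial cells (4710 against 4960 to 5010 CPM). Egf replicate 3 was high for Tgfa (48.1 against 34.3 to 35.7 CPM), Erbb3 (91.8 against 57.8 to 62.8 CPM) and the marker sums of immature neutrophils (185 against 110 to 122 CPM), kidney tubule (30 against 1.24 to 2.72 CPM) and thymocytes (6.39 against 0.267 to 1.14 CPM), and low for Ebf2 (0.0573 against 0.276 to 0.281 CPM). Egf replicate 4 was high for Nr4a3 (126 against 113 to 115 CPM), Plaur (86.1 against 68.6 to 71.3 CPM) and Rab17 (1.23 against 0.386 to 0.45 CPM).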

How the results depend on the processing

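Against untreated lung, counts of genes higher and lower were 526 and 550, and 496 and 557 with RLE scaling. DESeq2 gave 923 and 913, with 102 and 99 in the vehicle step, 242 and 80 in the Egf step, 16 genes that added and 7 that cancelled. The covariate fit gave 224 and 191, with 4 higher in the vehicle step, 43 and 12 in the Egf step and 0 that added. Without the filter there were 344 higher, 2 lower in the vehicle step and 1 that added. With only the 10 libraries 4 were lower in the vehicle step and 1 added, and without genes rich in other organs 4 were lower in that step. With a library left out, the counts against untreated lung ran from 234 to 525 higher and 227 to 636 lower, those of the vehicle step from 4 to 32 and 0 to 25, those of the Egf step from 40 to 109 and 7 to 23, the genes that added from 0 to 4 and those that cancelled from 0 to 1. The lowest counts against untreated lung came without untreated replicate 3 and 1, the highest of the vehicle step without untreated replicate 2. Replicate numbers did not pair the libraries, since deviations of same-numbered Egf and untreated libraries correlated at -0.0915, 0.0653 and -0.0883; a replicate block gave 393 and 488 against untreated lung, 3 lower in the vehicle step, 62 and 13 in the Egf step and 0 that added. Of the 92 called genes that the naming rule took, which leaves out those chosen after their values were seen, 56 kept the call without each of the 10 libraries and 52 in every alternative, and none changed direction. The causes of these shifts were not tested. Most 1.5-fold changes were missed in the simulation, which changed fewer genes than were called here, so a gene without a call may still differ.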

Other observations

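Among other white cell lists, 0 of 7 natural killer cell and 1 of 6 dendritic cell markers were called against untreated lung. So were 1 of 2 basophil and mast cell and 0 of 8 alveolar macrophage markers, against 6.41% of all genes tested. Natural killer cell markers, cytotoxic receptors and granule proteins, summed to 61.4, 62.2 and 48.6 CPM in untreated lung, 31.6, 43.2 and 31.2 CPM after vehicle and 62.7, 50.5, 26.2 and 46.7 CPM after Egf. The vehicle libraries lay below the untreated ones and overlapped the Egf libraries. Their 7 members had a median log2 change of -0.83 in the vehicle step, 0.61 in the Egf step and -0.19 in total, and none passed in any of the 3 comparisons. Dendritic cell markers summed to 62.9, 59 and 64.6 CPM in untreated lung, 50, 56.6 and 43.2 CPM after vehicle and 49, 51.2, 45.2 and 50.6 CPM after Egf, with the untreated libraries above all others. Clec9a, a receptor of cross-presenting dendritic cells, fell against untreated lung (24.4, 16.5 and 21.1 CPM to 14.1, 12.6, 14.6 and 12.7 CPM), as did the mast cell protease Cpa3 (3.92, 7.62 and 3.71 CPM to 2.15, 1.91, 1.43 and 2.73 CPM). Both calls were lost with a library left out, and neither gene was called in either step. Alveolar macrophage markers had a median of 0.42 in total, of which 0.36 lay in the vehicle step, and 0 of 8 passed.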
